A study of Mus musculus with 6 samples.

Results

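The subject of this section is the genome outside peaks of ubiquitylated histone H2B (H2Bub) in C2C12, an established mouse myoblast line. Consecutive 10 kb windows on chromosomes 1 to 19 were selected on 2 measured values: at least 1 read in the 6 libraries, and no overlap with an interval of either deposited peak list. This gave 194693 peak-free windows, 82.5% of the 235862 autosomal windows with reads, beside 41169 autosomal windows that touched a peak and 250807 windows with reads when chromosome X was included. MB stands for proliferating myoblasts, collected at roughly 40% confluency from medium with 10% fetal bovine serum. Myotubes (MT) were collected 4 days (96 h) after confluent cells were moved to 2% horse serum, with fresh medium on day 2. Each group had 3 libraries, all from chromatin digested with micrococcal nuclease and precipitated with the same H2Bub antibody clone, and the series set out to map the mark in both states. The cell type label reads C2C12 and the source names C1C12. No genotype, transgene or drug is named for either group, the share of cells that fused into myotubes is not given in the labels, and the identity of the cells could not be checked on marker genes because no annotation of build mm9 was used here.

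H2Bub is the attachment of a single ubiquitin to histone H2B, placed by the RNF20-RNF40 ligase as RNA polymerase II elongates, and it is known for covering the bodies of transcribed genes. Reads outside called peaks come from chromatin recovered without specific enrichment and from enrichment too weak or diffuse for a peak call. Their density is known to follow the number of DNA copies, how uniquely short reads can be placed, base composition and chromatin accessibility, and long-cultured lines such as C2C12 are known for abnormal karyotypes. Input chromatin, base composition and mappability were not analysed here, so the part of each of these in the values below was not tested. In bulk chromatin, fewer cells with a signal and less signal per cell cannot be told apart.

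Peak-free windows held 43.7%, 38.3% and 46.2% of the reads on chromosomes 1 to 19 and X in the MB libraries, and 70.8%, 74.6% and 70.8% in the MT libraries. Means were 42.8% ± 4.02 (SD, n = 3) and 72.0% ± 2.16 (SD, n = 3). Both peak lists come from the same 2 groups of cells, so these shares follow from the choice of windows and are given as a description. Total reads per library ran from 8767810 to 15903500, and peak-free reads from 4022461 in MB replicate 2 to 10247368 in MT replicate 3. The labels list a different antibody lot number for each library, but the numbers run consecutively in sample order, so they may not stand for separate lots. A window held on average 20.7 to 52.6 reads, and 0.725% to 1.53% of windows held none in a given library. To compare libraries, each value was divided by the library's own mean over peak-free windows, so 1 is that library's peak-free average. Such a relative density shows how background reads were spread, not how many there were.

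Chromosome 15 had the highest mean relative density of the 19 autosomes and chromosome 7 the lowest, in both groups. Chromosome 15 stood at 1.25, 1.20 and 1.20 in the MB libraries and at 1.27, 1.30 and 1.26 in the MT libraries. Chromosome 7 stood at 0.747, 0.789 and 0.819 in MB and at 0.751, 0.733 and 0.774 in MT. Chromosome 7 was lowest in all 6 libraries and chromosome 15 highest in 5, the exception being MB replicate 3, where chromosome 11 stood at 1.21. Chromosomes 11, 10 and 19 followed chromosome 15, with means over the 6 libraries of 1.15, 1.13 and 1.10, and their ranges overlap one another. Leaving out chromosomes 7, 9, 10, 15 and 18, single libraries ranged from 0.908 to 1.21.

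**Figure D1:**
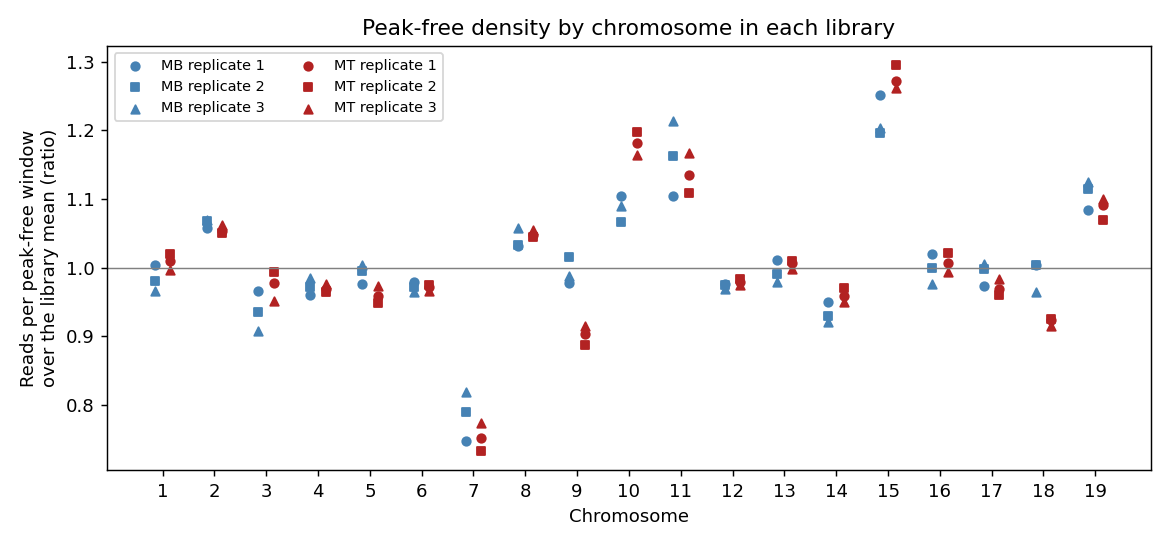
Relative density of peak-free windows (y axis, reads per window over the library's peak-free mean, a ratio) for the 19 autosomes (x axis). Each point is 1 library, MB in blue and MT in red, and the line marks 1; chromosome 7 is lowest in all 6 libraries and chromosome 15 highest in 5, and the groups separate on chromosomes 5, 9, 10, 14, 15 and 18.

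Mean density over the 6 libraries ran with the number of MT peaks that overlap no MB peak per Mb of the windows with reads on a chromosome. Chromosome 15 had 18.2 such peaks per Mb, chromosome 10 had 10.6, chromosome 9 had 1.21 and chromosome 7 had 0.630. Across the 19 chromosomes, Pearson's r was 0.85 and Spearman's rho 0.89. The chromosomes share the same 6 libraries, and the peak lists were called on these cells, so the relation is a description.

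The order of chromosomes was largely common to both groups, and 3 chromosomes carried the clearest offsets between them. Chromosome 9 had relative densities of 0.978, 1.02 and 0.988 in MB and of 0.903, 0.888 and 0.914 in MT. Chromosome 18 had 1.00, 1.00 and 0.965 in MB and 0.924, 0.926 and 0.915 in MT. Chromosome 10 had 1.11, 1.07 and 1.09 in MB and 1.18, 1.20 and 1.16 in MT. On each of the 3, no MB library fell within the range of the MT libraries. The log2 ratio of the MT to the MB mean was -0.14 for chromosome 9, -0.10 for chromosome 18 and 0.12 for chromosome 10. Chromosome 18 was singled out after its values were seen.

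Groups did not overlap on 6 of the 19 chromosomes, which is 31.6% of those compared. Density was higher in MT on chromosomes 10, 14 and 15 and lower on chromosomes 5, 9 and 18. The exact two-sided permutation test gave p = 0.1 for each, the smallest that 3 against 3 libraries allow, and 0.317 after Benjamini-Hochberg adjustment over the 19, so none passed the threshold of 0.05. The labels do not say that the libraries came from separate cultures, so every p-value here measures only sample-to-sample spread, and that spread may be technical. With only windows at least 50 kb from any peak, chromosomes 9, 10 and 18 still did not overlap, with log2 ratios of -0.095, 0.076 and -0.076, whereas chromosomes 5, 14 and 15 did overlap. In that selection, chromosomes 2 and 17 became lower and chromosomes 8 and 12 higher without overlap. Without MB replicate 1 the count was 14, and without MT replicate 3 it was 11. Leaving a library out cannot make separated groups overlap. The count can then only stay or rise, so these values do not test how stable it is.

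The offsets of chromosomes 9 and 18 extended along their whole length rather than over a single stretch. When the 1 Mb bins of a chromosome were divided into 3 consecutive runs, MB and MT libraries were apart in all 3 runs on chromosome 9 (log2 ratios of -0.12, -0.19 and -0.17) or on chromosome 18 (-0.073, -0.13 and -0.16). On chromosome 10 the first and last runs did not overlap (0.12 and 0.13), while the middle run did (0.072). Chromosome 7 was lower in MT without overlap in its middle run (-0.035), and chromosome 15 overlapped in all 3. Runs were compared only for chromosomes 7, 9, 10, 15 and 18, so no share over the 19 autosomes stands beside these results. Of 127 bins on chromosome 10, 106 had a fitted log2 fold change above 0, or 83.5%, compared with 55.6% of all 2401 bins. Chromosome 9 had 24 of 121 bins above 0 and chromosome 18 had 24 of 88.

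The 3 offsets were also seen among bins of similar MB peak content. MT peak content was not matched. About 14.2% of windows touched an MT peak on chromosome 10, against 2.87% on chromosome 9 and 5.03% on chromosome 18. The part of MT peak content in the offsets was not tested. Bins were placed in 4 classes by the share of their windows with an MB peak: 0, above 0 to 10%, above 10 to 20%, and above 20%. Relative to the mean of its class, chromosome 9 was lower in MT without overlap in all 4 classes and chromosome 10 was higher in all 4. Chromosome 18 was lower without overlap in 3 classes and overlapped in the class above 20%. Chromosome 7 was lower without overlap in the class above 20% and overlapped in the rest. Only chromosomes 7, 9, 10, 15 and 18 were compared by class, so no share over the 19 autosomes stands beside these results. Chromosome 15 behaved otherwise: it overlapped in the 2 classes with the fewest MB peaks and was higher in MT in the other two, where its class-relative mean went from 1.08 ± 0.0329 in MB to 1.21 ± 0.0162 in MT (SD, n = 3) for the class above 20%. These classes were set after the data were seen.

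Chromosome 7 was lowest in its first run of bins and held deep local dips. It had 27 of the 92 bins on all autosomes whose mean relative density was below 0.5. Its first run of bins, up to 60 Mb, averaged 0.549 to 0.651 in the MB libraries and 0.530 to 0.583 in the MT libraries. The middle run averaged 0.818 to 0.833 in MB and 0.798 to 0.809 in MT, and the last run 0.888 to 1.02 and 0.853 to 0.930. The chromosome stayed low by the median over windows, at 0.750 to 0.806 in MB and 0.757 to 0.815 in MT. The groups overlapped on the chromosome as a whole, and 70 of its 140 bins lay on each side of a log2 fold change of 0. Chromosome 15, by contrast, held no bin below 0.5 and held 21 of the 73 bins above 1.5.

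Background density declined with distance from peaks in every library. Windows less than 20 kb from a peak of either list had relative densities of 1.36, 1.51 and 1.47 in MB and of 1.24, 1.19 and 1.28 in MT. Windows 500 kb or more from any peak had 0.715, 0.619 and 0.591 in MB and 0.690, 0.738 and 0.646 in MT. The groups were apart in the nearest class, with MB higher, and overlapped in the farthest. Between 50 and 200 kb the order was the opposite, since the MT libraries were higher than all MB libraries both at 50 to 100 kb (1.06 ± 0.00539 against 0.990 ± 0.0178; SD, n = 3) and at 100 to 200 kb (0.954 ± 0.0134 against 0.876 ± 0.0229; SD, n = 3). Because each library is scaled to its own mean, a higher value in 1 class lowers the others. Windows near a peak can also hold the flank of that peak, and the MB list is the longer one.

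**Figure D2:**
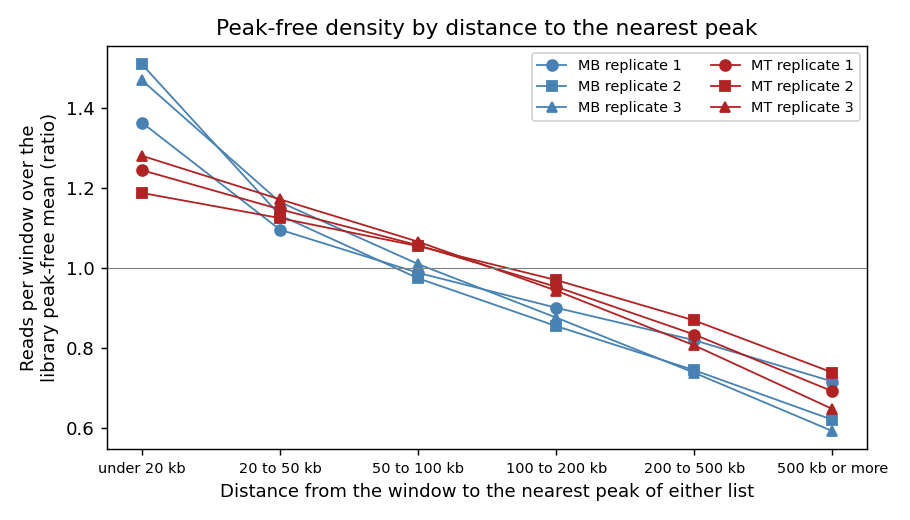
Relative density (y axis, reads per window over the library's peak-free mean, a ratio) by distance from the window to the nearest peak of either list (x axis, 6 classes in kb). Each line is 1 library, MB in blue and MT in red; all 6 decline with distance, and the MB lines start higher, from 1.36 to 1.51 under 20 kb.

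Windows within 50 kb of a peak were 1.62, 1.96 and 1.99 times as dense as windows 200 kb or more away in MB, and 1.56, 1.44 and 1.68 times in MT. The ratio was 1.86 ± 0.208 in MB and 1.56 ± 0.124 in MT (SD, n = 3), and the groups overlapped (exact permutation p = 0.2). With near defined as within 20 kb they did not overlap, at 1.77, 2.20 and 2.19 in MB and 1.62, 1.47 and 1.75 in MT (exact permutation p = 0.1, the smallest possible). The spread between bins, as the SD of log2 relative density over 1 Mb bins, was 0.694 ± 0.0470 in MB and 0.657 ± 0.0284 in MT (SD, n = 3; exact permutation p = 0.3). In windows at least 50 kb from any peak that difference had the opposite sign, 0.735 in MB and 0.752 in MT. No difference in evenness was detectable with 3 libraries a group.

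At 1 Mb resolution, the autosomal background varied from bin to bin. Of 2418 bins, 2401 held at least 20 peak-free windows (a median of 84), and 1381 of these, 57.5%, had a mean relative density between 0.75 and 1.25. The densest bin with at least 50 windows was chr11:3000001-4000000, at 3.13, 3.37 and 3.59 in MB and 3.47, 3.31 and 3.41 in MT. It held 5 of the 195 peak-free autosomal windows with the most reads, and its single most-read window took 13.0% to 15.8% of its reads. Without those 5 windows the bin stood at 1.12 to 1.60. Next came chr8:89000001-90000000, at 1.82, 1.85 and 1.95 in MB and 1.68, 1.57 and 1.68 in MT. The third was chr15:72000001-73000000, with a mean of 1.70 over the 6 libraries. Another bin on each of chromosomes 8 and 15 completed the 5 highest. Genes and repeats in these bins were not examined, for want of an mm9 annotation.

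Among bins with at least 50 peak-free windows, none of the 5 with the lowest density passed the threshold between groups. The lowest of them, chr12:19000001-20000000, had relative densities from 0.0342 to 0.0419 in MB and from 0.0361 to 0.0386 in MT over its 70 peak-free windows. Chr14:42000001-43000000 and chr14:44000001-45000000 had means of 0.0421 and 0.0542 over the 6 libraries, chr13:66000001-67000000 had 0.0542 and chr7:32000001-33000000 had 0.107. No window in these 5 bins touched a peak, and their adjusted p between groups ran from 0.188 to 0.998 (limma voom). In chr14:44000001-45000000 the MB libraries, at 0.0435, 0.0503 and 0.0544, were all below the MT libraries, at 0.0640, 0.0551 and 0.0577. Bins with fewer windows could be emptier, such as chr7:33000001-34000000 at a mean of 0.0107, which is described with the increases.

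Between groups, 392 of 2401 bins passed the threshold, 16.3% of those tested: 161 were higher in MT (6.71%) and 231 lower (9.62%), by limma's voom fit with Benjamini-Hochberg adjustment over all bins. Chromosome 10 held 27 higher bins and 1 lower among 127, and chromosome 9 held 1 higher and 30 lower among 121. Chromosome 18 held 1 higher and 15 lower among 88, and chromosome 15 held 6 higher and 0 lower among 101. Changes were small, with a median size of 0.28 on the log2 scale. Lower bins lay in peak-rich surroundings: a median of 27% of their windows touched an MB peak, against 11% over all bins and 2% for higher bins. In the class with no MB peak, 67 of 643 bins were higher and 3 lower, and in the class above 20%, 2 of 712 were higher and 168 lower. The MB list was called on these cells and also set which windows were left. With each library scaled to its own mean, the relation to MB peaks is therefore not independent of the choice of windows, and is a description.

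**Figure D3:**
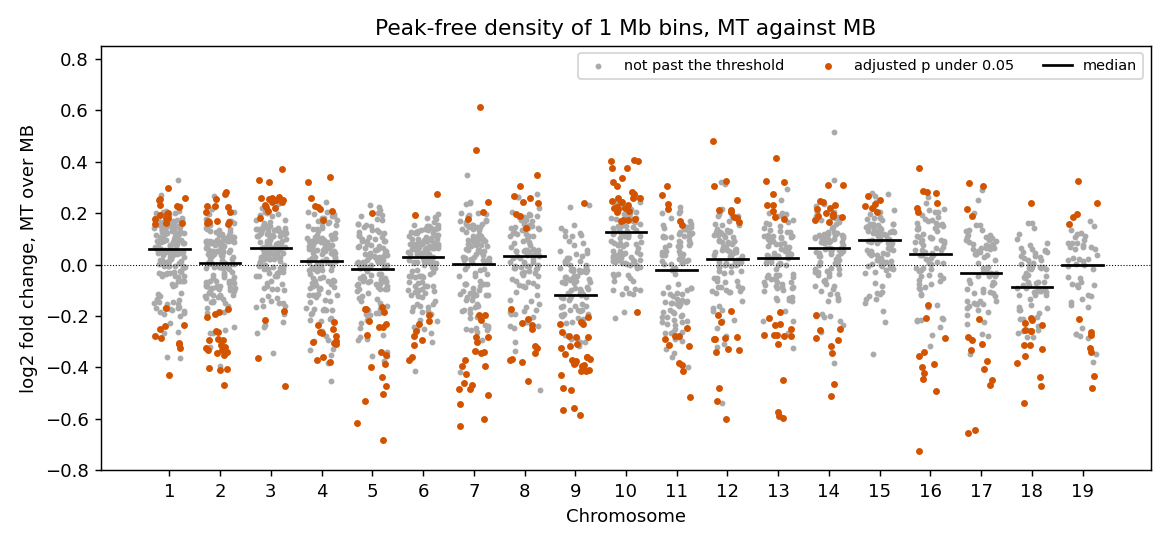
Log2 fold change of relative density, MT over MB (y axis), for each 1 Mb bin by autosome (x axis). Orange points passed an adjusted p of 0.05, grey points did not, and black bars are chromosome medians; the medians of chromosomes 9 (-0.12) and 18 (-0.086) lie below 0 and that of chromosome 10 (0.13) above.

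These calls rested on few libraries. Without MB replicate 2, or without MT replicate 1, 0 bins passed in limma's fit, although 521 and 576 had an unadjusted p under 0.05. Without MB replicate 3 there were 73, without MT replicate 2 there were 47, without MB replicate 1 there were 684 and without MT replicate 3 there were 424. With only windows at least 50 kb from a peak, 10 of 1883 bins passed, all of them lower in MT and 4 of them on chromosome 9. Libraries also differed within a group along an axis that both groups shared. Over the 2401 bins, the deviation of MB replicate 1 from its group mean had a correlation of 0.88 with that of MT replicate 2, and MB replicate 3 had 0.85 with MT replicate 3. In bins with over 20% of windows in MB peaks, MB replicates 1 to 3 stood at 1.24, 1.38 and 1.40, and MT replicates 1 to 3 at 1.19, 1.14 and 1.25. The part of this axis in the calls was not tested beyond the fits with libraries left out.

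Among bins past the threshold, the largest decreases in MT were on chromosomes 16, 5, 17 and 7. Chr16:98000001-99000000 had 1.28, 1.44 and 1.35 in MB and 0.803, 0.795 and 0.867 in MT, a log2 fold change of -0.72 ± 0.070 (SE; limma voom adjusted p = 0.0137). Only 20 of its windows were peak-free, and 28.1% of its windows touched an MB peak. Chr5:3000001-4000000 had 0.854, 0.984 and 0.791 in MB and 0.567, 0.538 and 0.546 in MT. Chr17:6000001-7000000, chr17:22000001-23000000 and chr7:104000001-105000000 had log2 fold changes of -0.65, -0.65 and -0.63. In each of the 5 the groups did not overlap, and between 17.2% and 42% of the windows touched an MB peak.

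The largest increases lay where MB peaks were absent. Chr12:91000001-92000000 had 1.11, 1.00 and 0.934 in MB and 1.42, 1.30 and 1.36 in MT, a log2 fold change of 0.48 ± 0.066 (SE; limma voom adjusted p = 0.0137). Chr7:98000001-99000000 had 0.792, 0.704 and 0.660 in MB and 1.02, 0.955 and 0.938 in MT. Chr13:83000001-84000000 and chr10:15000001-16000000 had log2 fold changes of 0.41 and 0.40. A further bin, chr7:33000001-34000000, had the largest value, 0.61, from only 5, 5 and 11 reads in MB and 14, 13 and 23 in MT. None of the 5 held a window with an MB peak, and 3 held windows with an MT peak, at 5% to 10% of their windows. As for all called bins, this relation to MB peaks is not independent of how the windows were chosen.

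At 10 kb resolution, 13492 of 181940 tested peak-free windows passed the threshold, 7.42%, against 20.6% of all 235913 windows tested, which include those with peaks. Of the peak-free windows, 2768 were higher in MT (1.52%) and 10724 lower (5.89%), against 1.38% and 19.2% of all windows tested. A further 12753 peak-free windows were under the floor on low counts and were not tested. Lower calls were concentrated near peaks, at 19.3% of tested windows under 20 kb, 5.59% at 20 to 50 kb, 1.16% at 100 to 200 kb and 0.277% at 500 kb or more. Higher calls showed no such decline, at 1.19% in the nearest class and 1.30% in the farthest. Chromosome 9 had the highest share of lower calls, 10.0%, and chromosome 15 the lowest, 2.66%. Chromosome 10 had the highest share of higher calls, 3.24%, and chromosome 18 the lowest, 0.494%. A window with high MB density near a peak is one that the MB list came close to including, so these counts are not independent of how the windows were chosen.

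Changes in single windows were ranked only where the 6 libraries averaged 50 or more reads. Larger changes in windows with fewer reads would not appear. This limit was reached through the higher group. Every MB library held fewer than 50 reads in the 5 largest increases, at 18 to 47, and more than 50 in the 5 largest decreases. Which windows are listed is thus not independent of the contrast, and the sizes below are a description. Of the 5 windows with the largest decreases in this set, 4 lay within 3350 bp of a peak. Chr7:28650001-28660000, 1312 bp from a peak, held 64, 88 and 83 reads in MB and 23, 17 and 32 in MT, a log2 fold change of -2.41 ± 0.25 (SE; limma voom adjusted p = 2.19e-11). The exception was chr9:55770001-55780000, 111218 bp from any peak, with 70, 81 and 65 reads in MB and 21, 28 and 36 in MT (log2 fold change -2.08). Increases were smaller. Chr10:44350001-44360000, 79788 bp from a peak, held 19, 25 and 39 reads in MB and 68, 62 and 99 in MT, a log2 fold change of 0.87 ± 0.22 (SE; limma voom adjusted p = 0.00188). Among the 5 largest increases, 2 lay on chromosome 10. The largest log2 fold change was 0.89, for chr9:79800001-79810000, with 18, 31 and 34 reads in MB and 87, 37 and 136 in MT. The groups overlapped there in relative density, since MT replicate 2 stood at 1.045 and MB replicate 2 at 1.5.

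Steps along chromosomes were sought by splitting each profile of log2 relative density into segments of at least 5 bins, once on the 3 MB libraries and once on the 3 MT libraries, and measuring each step in the group that had not been used. A step was the difference between the medians of up to 10 bins on either side, and had to reach 0.25 on the log2 scale. The MB libraries gave 82 steps, 45 rises and 37 falls in the direction of increasing coordinate. All 82 had the same sign in each of the 3 MT libraries, and 71 reached 0.25 in all 3. The MT libraries gave 131 steps, of which 130 had the same sign in every MB library and 119 reached 0.25 in all 3. For 64 of the 82 MB steps, an MT step of the same sign lay within 1 Mb. The smallest MB step kept was 0.29, on chromosome 19, and the largest left out was 0.24, on chromosome 5. A step is a change in read density; whether any is a change in DNA copy number was not tested.

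The largest steps found in MB bounded stretches with a median density near 0, and such a median can hide covered bins. On chromosome 12, the stretch from 18000001 to 25000000 had a median of 0.0488, 0.0491 and 0.0541 in the MB libraries and 0.0398, 0.0466 and 0.0452 in the MT libraries, between flanks near 1. It was not empty throughout. The bin centred 3.5 Mb after its left edge stood at 0.598, 0.665 and 0.700 in MB and 0.518, 0.485 and 0.555 in MT. On chromosome 14, a rise at 10000001 measured 5.81, 5.95 and 5.72 in MB and 5.81, 5.83 and 5.91 in MT on the log2 scale. Its position is approximate, because segments of under 5 bins were not allowed, and the profile rises before it. The MB search gave a second stretch on chromosome 14, from 42000001 to 47000000, of 5 bins. Its median was 0.0457, 0.0503 and 0.0544 in MB and 0.0640, 0.0551 and 0.0577 in MT. The MT search placed no step at either of these edges. It placed a rise at 45000001, and the 5 bins from there to 50000000 had medians of 1.119 to 1.225 in the 6 libraries. The extent of the emptier part was therefore uncertain. Measured at the positions found in MB, the edges of these stretches differed between groups by little relative to their size.

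**Figure D4:**
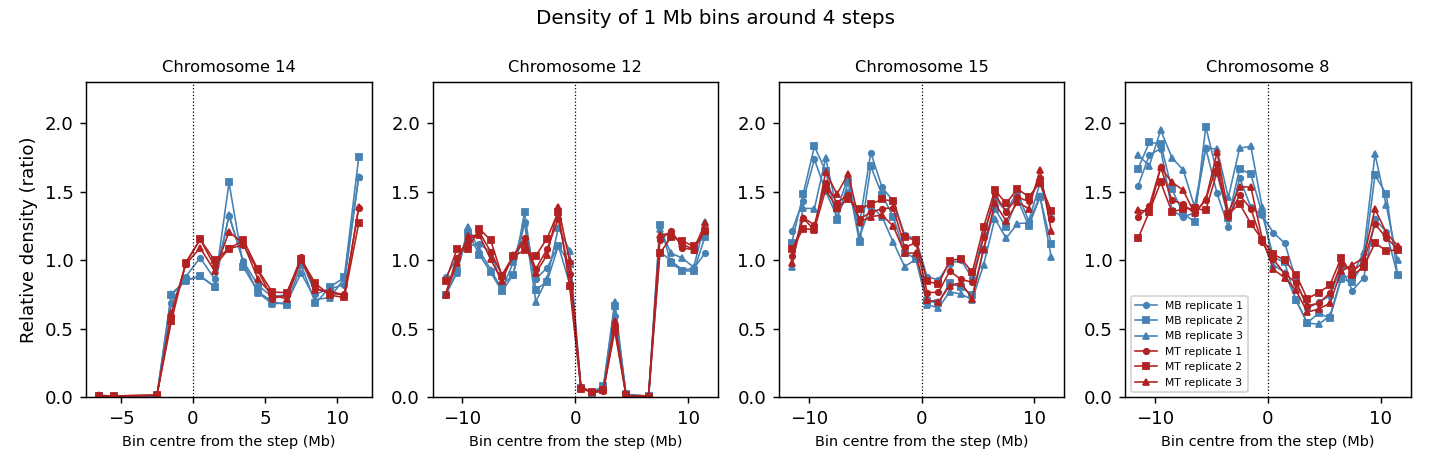
Relative density of 1 Mb bins (y axis, a ratio) by distance of the bin's centre from a step found in the MB libraries (x axis, Mb, 0 at the step), for steps on chromosomes 14, 12, 15 and 8. Each line is 1 library, MB in blue and MT in red; the profiles of both groups rise or drop at the same places, to near 0 on chromosomes 14 and 12 and to between 0.5 and 1 on chromosomes 15 and 8.

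Steps between well-covered stretches were smaller. With a median relative density of 0.5 or more on both sides, 63 MB steps were left, with a median size of 0.66 in MB and 0.55 in MT, and 52 of them reached 0.25 in all MT libraries. On chromosome 15, density fell at 45000001 from 1.47, 1.40 and 1.34 in MB and 1.36, 1.40 and 1.30 in MT to 0.927, 0.776 and 0.734 in MB and 0.851, 0.956 and 0.767 in MT. It returned at 51000001 to 1.45, 1.39 and 1.29 in MB and 1.45, 1.49 and 1.42 in MT. A second dip on this chromosome, between 14000001 and 25000000, reached 1.01, 0.853 and 0.786 in MB and 0.942, 1.03 and 0.864 in MT, so all 4 of its steps bound dips within a high chromosome. On chromosome 8, density fell at 99000001 by 0.75, 1.03 and 1.18 on the log2 scale in MB and by 0.71, 0.62 and 0.88 in MT.

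Chromosome 10 had no step in either group, although its density was above 1. Chromosome 9 had 1 step found in MB and 6 found in MT. The one at 20000001 was found in both, a rise of 0.50, 0.58 and 0.71 in MB and 0.46, 0.36 and 0.59 in MT, and the other 5 MT steps also reached 0.25 in every MB library. Chromosome 18 had 3 steps found in MB and 4 in MT. Chromosomes 6 and 7 had the most in both searches, 9 each in MB and 12 and 13 in MT, whereas chromosome 3 had 1 in MB and 11 in MT. Of the MB steps on chromosome 7, 6 bounded dips at 9000001 to 16000000, 30000001 to 35000000 and 110000001 to 116000000. The dip at 30000001 fell by 1.21, 1.45 and 1.69 on the log2 scale in MB and by 1.23, 1.10 and 1.40 in MT. Levels on the left of the 71000001 step, by contrast, were not empty: the rise there measured 0.49, 0.67 and 0.89 in MB and 0.68, 0.60 and 0.89 in MT.

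To look for steps that differed between the groups, the log2 ratio of MT to MB was segmented in replicates 1 and 2 and each step of at least 0.1 was measured in replicate 3. This search was added after the data were seen. It gave 11 steps on 7 chromosomes, and all 11 had the same sign and reached 0.1 in replicate 3. None lay on chromosomes 9, 10, 15 or 18. Of the stretches between these steps, 3 are described, chosen after their values were seen. On chr8:70000001-101000000, mean relative density was 1.35 ± 0.0459 in MB and 1.21 ± 0.0292 in MT (SD, n = 3). There, 21% of windows touched an MB peak. On chr16:13000001-19000000, with 28.7% of windows in MB peaks, the means were 1.29 ± 0.0761 and 1.02 ± 0.0320 (SD, n = 3). On chr14:117000001-125000000, with 21.5%, they were 1.28 ± 0.0624 and 1.07 ± 0.0131 (SD, n = 3). Groups did not overlap in these 3 stretches, but this was not particular to them. On chr2:3000001-158000000 the libraries stood at 1.117 to 1.138 in MB and 1.076 to 1.087 in MT. On chr17:3000001-17000000 they stood at 0.949 to 1.026 in MB and 1.048 to 1.083 in MT. Each of the 3 is richer in MB peaks than the median bin, at 11%, and MB peaks also set which windows were left. When all 6 libraries were segmented together, neither edge of the chromosome 16 stretch was found, and the left edge of the chromosome 8 stretch lay at 81000001. Replicate 1 taken alone had the opposite sign at 2 of the 11 steps, at 70000001 on chromosome 8 and at 31000001 on chromosome 17.

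Nucleosomes lie at regular intervals on chromatin, and micrococcal nuclease cuts the linker between them, so distances between reads on the same strand cluster at multiples of the nucleosome repeat. The first 5 such maxima were located in each library from reads in peak-free windows. The first of them lay at 180, 190 and 194 bp in MB and at 189, 191 and 187 bp in MT. The repeat, from the positions of the 5 maxima, was 198, 190 and 193 bp in MB and 188, 193 and 191 bp in MT. Means were 193.7 ± 4.36 bp and 190.7 ± 2.40 bp (SD, n = 3), and the groups overlapped (exact permutation p = 0.4).

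**Figure D5:**
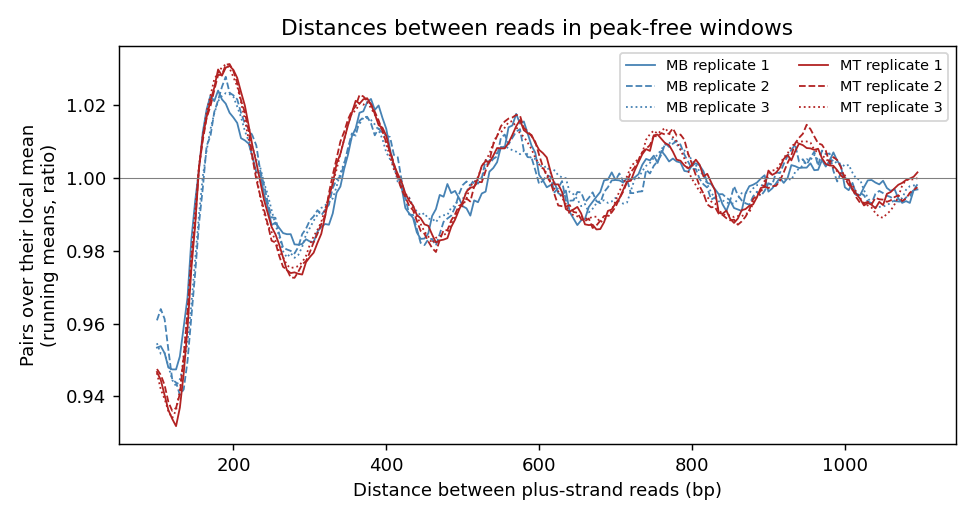
Pairs of plus-strand reads in peak-free windows by the distance between them (x axis, bp), as a 31 bp running mean over a 201 bp running mean (y axis, a ratio). Each curve is 1 library, MB in blue and MT in red. All 6 have maxima near multiples of 190 bp, except that the fifth of MB replicate 1 was at 984 bp. The MT curves have the higher first maximum.

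The first maximum rose above the local mean by 2.41%, 2.79% and 2.35% in MB and by 3.12%, 3.16% and 3.14% in MT. The MT libraries were all higher, with means of 2.52% ± 0.239 and 3.14% ± 0.0204 (SD, n = 3; exact permutation p = 0.1, the smallest this design allows). Minus-strand reads gave 2.50% and 2.99%, also with an exact permutation p = 0.1. On the plus strand, windows within 50 kb of a peak gave 2.73%, 2.54% and 2.56% in MB and 3.28%, 3.37% and 3.11% in MT. Windows 200 kb or more away gave 4.07%, 4.66% and 3.36% in MB and 4.16%, 4.05% and 2.97% in MT. There the groups overlapped. Pairs of reads were fewer there than within 50 kb in every library, at 640176, 503192 and 1580361 in MB and 1465721, 1990381 and 3658550 in MT. The part of pair number in these heights was not tested, so the overlap cannot tell whether the groups differ far from peaks. Mean reads per window were 26.4 ± 9.79 in MB and 40.0 ± 11.1 in MT (SD, n = 3), and the part of depth in this height was not tested.

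Spacing near and far from peaks could not be told apart. Windows within 50 kb of a peak gave a repeat of 195.1 ± 4.80 bp and windows 200 kb or more away gave 191.6 ± 4.41 bp (SD, n = 6 libraries). The difference of near minus far was 5.5, 7.8 and -1.2 bp in MB and 6.4, 4.5 and -2.4 bp in MT, positive in 4 of 6 libraries. Its mean was 3.43 ± 4.21 bp (SD, n = 6; exact two-sided sign-flip permutation p = 0.125, where the smallest possible is 0.0312). With near defined as within 20 kb, or with smoothing over 51 bp, it was positive in 5 of 6 libraries (exact sign-flip permutation p = 0.0938 and 0.156). With minus-strand reads it was positive in the 3 MB libraries, at 20.1, 7.3 and 7.1 bp, and negative in the 3 MT libraries, at -7.3, -0.8 and -1.2 bp. The exact permutation test between groups gave p = 0.1 there, the smallest possible, and p = 0.6 for the plus strand, where the groups overlapped.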

How the data were processed

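H2Bub chromatin immunoprecipitation after micrococcal nuclease digestion was sequenced in 3 MB and 3 MT libraries. The authors deposited, per library, a list of mapped reads (chromosome, position, strand), and 1 peak list per group, on build mm9 per the submitters' processing notes. The sources used here do not give the aligner, read length, filters, peak caller, controls or pooling. Each position and strand occurs at most once per library (0 repeats), which can compress the densest windows. Files do not say whether positions count from 0 or 1.

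Reads were counted here in 10 kb windows. Bins of 1 Mb summed windows without peaks, with at least 20 such windows. Groups were compared with limma 3.58.1 (voom, two-sided moderated test) in R 4.3.3, with peak-free reads as library size and Benjamini-Hochberg adjustment; 10 kb windows needed, in 3 libraries, 10 or more reads after scaling to the median depth, and 15 reads in all. Single values were compared with exact permutation tests. Segmentation split a profile wherever the gain exceeded 3 times the noise variance times the log of the number of bins. Spacing used distances to 1300 bp, smoothed over 31 bp. The first maximum was sought from 130 to 260 bp, and each later one 130 to 260 bp after the last. Scripts were tested on simulated data. Other steps ran in Python 3.11.15 with numba 0.67.0, SciPy 1.17.1, pandas 2.3.3, NumPy 2.4.6 and matplotlib 3.10.9.

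Named bins were the 5 highest, the 5 lowest (at least 50 windows) and the 5 largest changes in each direction past the threshold. Named windows were the 5 largest changes in each direction with a mean of at least 50 reads, and named steps the 5 largest; chromosomes 7, 9, 10 and 15 came with the choice of windows and all other named stretches were chosen after their values were seen. The windows, lists and tests were chosen with earlier results of these data known. Distance classes, classes of peak content, runs of bins along a chromosome, the ratio segmentation, the limit of 0.5 on both sides of a step and the exclusion of library pairs were added after seeing the data. Alternatives covered scaling, bin size, distance from peaks, a replicate block, limma-trend and each library left out. No sequence is printed, since no mm9 genome was used here.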

Additional observations from a re-analysis of the deposited data

Results flagged for a closer look

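Chromosome X lies outside the autosomal comparisons and also held peak-free windows with reads, 13992 in number. Their density over the autosomal peak-free mean was 0.793, 0.733 and 0.687 in the MB libraries and 0.769, 0.794 and 0.730 in the MT libraries. The means were 0.738 ± 0.0532 and 0.764 ± 0.0324 (SD, n = 3), the groups overlapped, and the exact permutation test gave p = 0.6.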

How the results depend on the processing

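Of 131 alternative values, 106 were classed as the same, 23 as moved and 2 changed sign. A count of chromosomes, bins or 10 kb windows was classed on its size alone, so the members behind it could differ. The log2 ratio of a chromosome was the same if it kept its sign and moved by less than its spread. The 2 changes of sign came from windows at least 50 kb from any peak, for the difference in evenness (0.0169) and the log2 ratio of chromosome 7 (0.00806). The number of 1 Mb bins past the threshold was 392, and became 790 in 500 kb bins, 10 far from peaks, 2374, all higher in MT, when scaled to total reads, and 619 without MB replicate 1 and MT replicate 2. Scaling to total reads moves the median of all bins from 0.021 to 0.78 on the log2 scale, since it counts the larger peak-free share of MT reads. It gave 150861 peak-free 10 kb windows (149140 higher) in place of 13492. Bins ranged from 0 to 684 and windows from 8782 to 14701 with 1 library left out. The number of chromosomes without overlap was 3 by the median over windows. With 1 library left out it was 6 to 14, but leaving a library out can only keep or raise this count. In 500 kb bins there were 174 MB steps and 229 MT steps, of which 148 and 205 reached the minimum in every library of the other group. Segmenting the ratio in all 6 libraries gave 10 steps, and 7 of the 11 reported had one of these within 1 Mb; other boundaries appeared on chromosomes 8 and 11, and those at 13000001 and 19000001 on chromosome 16 were not found. With a replicate block, 850 bins passed (366 higher, 484 lower), but replicate numbers did not pair the libraries: the correlation of deviations was 0.13 for replicate 1, -0.37 for replicate 2 and 0.85 for replicate 3, and MB replicate 1 went best with MT replicate 2. The cause of these movements was not tested, other than scaling. Counting error limits single 10 kb windows, at 20.7 to 52.6 reads a library.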
